A study of Mus musculus with 24 samples.

Results

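Heat shock proteins are chaperones that hold, fold and refold other proteins, and their messenger RNAs are classical markers of cell stress. The genes described here are 10 members of this system, chosen by name: Hspa1a, Hspa1b, Hspb1, Hsph1, Dnajb1, Hspa8, Hsp90aa1, Hspd1, Hspe1 and Hsf1. All 10 were found, once each, among the 53379 genes of the count table, and all 10 passed the filter on low counts. The libraries came from adult male C57/BL6N mice that received an intracortical injection of kainic acid (KA), an agonist of glutamate receptors that sets off status epilepticus, or of saline (SH). Both groups went through the same anaesthesia, craniotomy and buprenorphine, and KA mice without convulsive seizures had been left out by the study. At 24 hours after status epilepticus the right hippocampi of 8 mice per treatment were pooled, 2 or 4 mice to a pool, into 3 pools, and nuclei were sorted by the neuronal nuclear protein NeuN into NeuN-positive nuclei (here neurons) and NeuN-negative nuclei (here glia). mRNAseq of both fractions of every pool gave 12 libraries, 3 each of SH neurons, KA neurons, SH glia and KA glia. The study's flowchart gives the first sample as a pool of 4 mice and the others as pools of 2 mice. The labels do not say whether the replicate numbers follow that order. Since a pool is the replicate, differences between single mice within a pool cannot be seen, and the RNA is nuclear RNA. The NeuN-negative fraction takes in every nucleus without NeuN, those of vessels and blood cells included. Because whole fractions were sequenced, fewer cells of a type and less RNA per cell cannot be told apart.

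As background, the HSP70 proteins bind exposed hydrophobic stretches of unfolded proteins in a cycle driven by ATP. J domain proteins such as DNAJB1 deliver the client and speed up hydrolysis, and nucleotide exchange factors such as HSPH1 (HSP110) and BAG3 reset the cycle. Small heat shock proteins such as HSPB1 (HSP27) hold unfolded proteins without ATP, HSP90 matures kinases and receptors, and HSPD1 with its lid HSPE1 folds proteins in mitochondria. The transcription factor HSF1 is kept inactive by chaperones in resting cells; under stress it forms trimers and binds heat shock elements, which are alternating repeats of the 5-base unit nGAAn. In the hippocampus after seizures, HSP70 is a well-known marker of stressed neurons and HSP27 of reactive astrocytes.

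In outline, Hspa1a and Hspa1b rose in neurons, 53.1-fold and 34.0-fold in the fit, and did not pass the test in glia. Hspb1 rose in both fractions, 20.2-fold in neurons and 15.2-fold in glia. Much of the size of the neuronal rises lay in KA neurons replicate 3, without which they were 10.5-fold, 8.68-fold and, for Hspb1, 8.84-fold with the call lost. The neuronal calls of Hspa1a, Hspa1b and Hspb1 were all lost without SH neurons replicate 1 or 2, and that of Hspb1 also without SH neurons replicate 3. The glial Hspb1 call was lost without SH glia replicate 3 (10.3-fold) or KA glia replicate 3 (10.8-fold). At an FDR of 0.05 and without a block, 0 members were called in either fraction. The abundant cytosolic chaperones Hspa8 and Hsp90aa1, the mitochondrial pair Hspd1 and Hspe1, Dnajb1 and the regulator Hsf1 did not pass the test in either fraction. Hsph1 was 1.79-fold higher in KA neurons without passing the test, and passed it when the replicate number entered the fit with all libraries.

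Total counts ran from 7769400 to 40364768 per library. The sort was checked by marker genes. The summed level of 10 neuronal markers was 4700 to 7621 CPM (the count relative to the TMM-scaled size of its library) in the 6 neuron libraries and 371 to 1558 CPM in the 6 glia libraries, so glia held between 7.89% and 27.7% of the neuronal marker level of their own pool. The 8 microglial markers stood at 42.4 to 102 CPM in neurons against 709 to 2351 CPM in glia, and the 8 astrocytic markers at 209 to 717 CPM against 1118 to 2485 CPM. The 7 endothelial markers separated less, and neuron libraries held 43.0% to 97.5% of the glial level of their own pool. Rbfox3, Aldh1l1, Cx3cr1 and Pecam1 were above 0 in every library, which does not bear on the sort. SH glia replicate 1 and KA glia replicate 2 were made from 0.05 ng of RNA with 15 PCR cycles, the others from 1 ng with 10 cycles. Reads of the mitochondrial chromosome took 0.208% of counts in SH glia replicate 1, 0.111% in KA glia replicate 1 and 0.102% in SH neurons replicate 1, against 0.0127% to 0.0521% in the other libraries.

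Promoter stretches with the letters of heat shock elements are shown first, because HSF1 binding to such elements is the textbook route by which such genes are induced. RefSeq promoter sequences (build GRCm38.p6), running from 250 bases before to 50 bases after a transcription start, were matched for 7 of the 10 members, and none was matched for Hspa8, Hsp90aa1 and Hsf1. They were searched for 2 neighbouring inverted units, GAANNTTC or TTCNNGAA, and for 3 units in a row, GAANNTTCNNGAA or TTCNNGAANNTTC. Each 2-unit form is its own reverse complement and the 3-unit forms are each other's, so both strands were covered. Of all 32851 such promoters, 15.1% held the 2-unit form and 0.603% the 3-unit form, which contains the 2-unit form. A match describes letters only, and was not tested as a binding site. Below, capitals mark the bases of every 2-unit match. The Hspa1a promoter is given over its full 250 bases before the start, chr17:34972157-34972406 on the minus strand, where no gene is annotated. The Hspa1b stretch is chr17:34959329-34959358 on the minus strand, and the Hspb1 stretch is chr5:135887789-135887848 on the plus strand; neither overlaps an annotated gene. The Hsph1 stretch, chr5:149636351-149636380 on the minus strand, overlaps an annotated Hsph1 exon, and the Hspe1 stretch, chr1:55088053-55088082 on the plus strand, lies in an exon of Hspd1, which runs the other way.
Hspa1a: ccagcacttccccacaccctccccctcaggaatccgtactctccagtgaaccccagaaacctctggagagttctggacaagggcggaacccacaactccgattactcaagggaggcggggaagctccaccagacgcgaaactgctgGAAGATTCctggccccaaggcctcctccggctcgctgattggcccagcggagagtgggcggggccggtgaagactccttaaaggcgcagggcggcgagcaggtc
Hspa1b: agacgcgaaactgctgGAAGATTCctggcc
Hspb1: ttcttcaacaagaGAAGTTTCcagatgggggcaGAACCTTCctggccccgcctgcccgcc
Hsph1: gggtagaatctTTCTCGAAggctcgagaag
Hspe1: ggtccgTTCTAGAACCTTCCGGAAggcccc

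The promoters of Hspa1a and Hspa1b were the same at 247 of 250 bases before the start (98.8%), and both held their single 2-unit match beginning at base -104. The Hspb1 promoter held 2 such matches, beginning at bases -117 and -97. Hsph1 held a 2-unit match beginning 33 bases before its first listed start and a 3-unit match beginning at base 37 after it. The element before the Hspe1 start, inside the annotated Hspd1 gene, has 4 units in a row, so that 2 overlapping 3-unit matches were found in it. It begins at base -89 of Hspe1 and, read on the other strand, at base -144 of the second Hspd1 start. Neither the 2 Dnajb1 promoters nor that of the first Hspd1 start held a match, which says only that these letters are not in those windows.

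**Figure D1:**
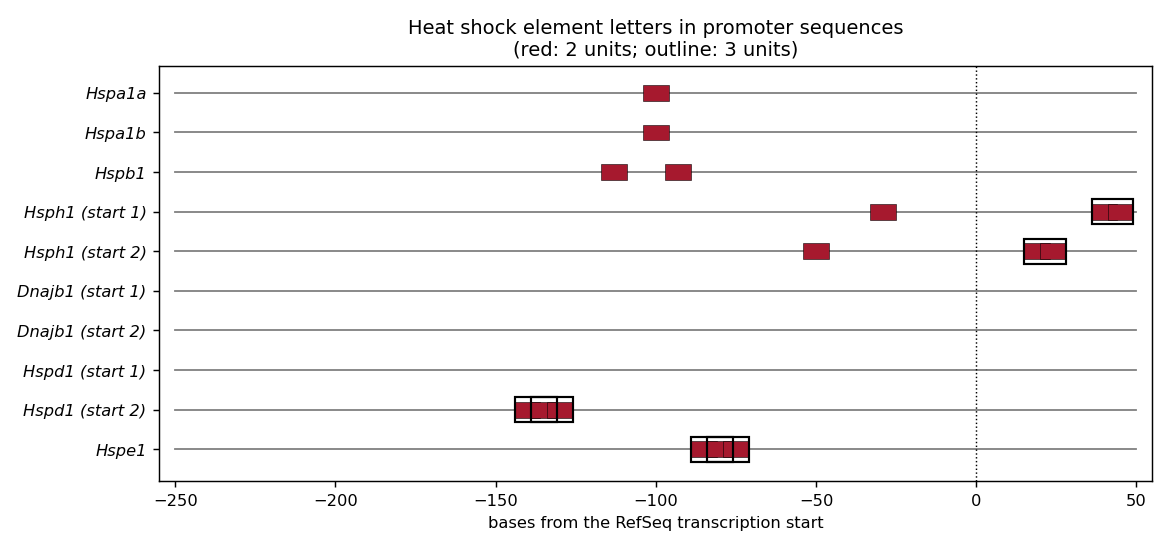
Position of heat shock element letters in the RefSeq promoter sequences of the 7 matched members. The horizontal axis gives bases from the transcription start (dotted line), each grey line is 1 promoter from base -250 to base 50, filled boxes are 2-unit matches and outlined boxes 3-unit matches. Hspa1a and Hspa1b share a match at base -104. The second Hspd1 start and Hspe1 show the 4-unit element of their shared region, and the lines of Dnajb1 and of the first Hspd1 start are empty.

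Hspa1a and Hspa1b encode the stress-inducible HSP70, and lie next to each other as intronless protein-coding genes on chromosome 17 (GRCm38, minus strand), Hspa1a (ENSMUSG00000091971) at chr17:34969190-34972156 and Hspa1b (ENSMUSG00000090877) at chr17:34956436-34959238. Hspa1a stood at 4.78, 5.69 and 7.67 CPM in the 3 SH neuron libraries and at 44.5, 82.4 and 838 CPM in the 3 KA neuron libraries. Hspa1b stood at 17.4, 18.0 and 22.0 CPM in SH neurons and at 167, 165 and 1621 CPM in KA neurons. Every KA neuron library lay above every SH neuron library for both genes, an order that 5.27% of all genes tested showed, and KA neurons replicate 3 lay far above the other KA libraries. The group means were 6.05 ± 1.48 CPM in SH and 322 ± 448 CPM in KA neurons for Hspa1a, and 19.1 ± 2.53 CPM and 651 ± 840 CPM for Hspa1b (SD, n = 3 pools). In the edgeR quasi-likelihood fit of all genes, the log2 fold change was 5.73 ± 1.02 (SE) for Hspa1a with an adjusted p (Benjamini-Hochberg false discovery rate, FDR) of 0.0532, and 5.09 ± 0.90 for Hspa1b with an FDR of 0.0527, both below the study's threshold of 0.25.

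The size of this difference depended on 1 library. Without KA neurons replicate 3 the fitted rise was 10.5-fold for Hspa1a (FDR 0.222) and 8.68-fold for Hspa1b (FDR 0.176), and both genes stayed below the threshold. Compared pool with pool of the same number, Hspa1a was higher by 9.31-fold, 14.5-fold and 109-fold, and Hspa1b by 9.63-fold, 9.16-fold and 73.5-fold. Leaving out SH neurons replicate 1 or 2 hardly moved the log2 fold changes (5.59 and 5.69 for Hspa1a, 5.02 and 5.05 for Hspa1b), but the FDR rose to 0.438 and 0.311 for Hspa1a and to 0.407 and 0.292 for Hspa1b. With the replicate number as a block the rise was 23.9-fold for Hspa1a (FDR 2.757e-04) and 17.8-fold for Hspa1b (FDR 1.458e-04). The same fit without KA neurons replicate 3, chosen after seeing the data, gave 11.7-fold (FDR 0.00374) and 3.23 ± 0.43 on the log2 scale (FDR 9.668e-04). SH neurons replicate 3 then had no partner in its block, so these values rest on the pairs of replicates 1 and 2.

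In glia the same genes did not pass the test. Hspa1a stood at 12.7, 5.01 and 6.45 CPM in SH glia and at 12.8, 4.47 and 35.8 CPM in KA glia. Hspa1b stood at 45.1, 14.7 and 18.0 CPM in SH glia and at 53.6, 13.8 and 68.1 CPM in KA glia. The groups overlapped, with KA glia replicate 3 the highest library and KA glia replicate 2 the lowest for both genes. The log2 fold changes were 1.15 ± 0.86 (FDR 1.00) and 0.80 ± 0.76 (FDR 1.00). Without KA glia replicate 3 that of Hspa1a was 0.08, and without SH glia replicate 1 that of Hspa1b was 1.52. SH glia replicate 1, highest in SH glia for both genes, and KA glia replicate 2 were the libraries made from 0.05 ng. Without both, the log2 fold changes were 2.00 ± 0.99 for Hspa1a and 1.75 ± 0.86 for Hspa1b, and neither passed the test. The part of RNA input in these values was not tested. The highest glial values, in KA replicate 3, came from the pool whose neurons held the highest levels.

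Glial levels were set beside the neuronal levels of the same pool. In KA pools 1, 2 and 3 the glia library held 28.7%, 5.43% and 4.27% of the Hspa1a level of the neuron library, and 32.0%, 8.36% and 4.20% of its Hspa1b level. The summed neuronal markers stood in the same glia libraries at 7.89%, 14.2% and 22.9% of the neuron libraries. In pools 2 and 3 the Hspa1 share was thus below the share of neuronal markers, and in pool 1 above it. In SH pools the glia held 84.1% to 266% of the neuronal Hspa1a level. The part of neuronal RNA in the glial values was not tested.

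**Figure D2:**
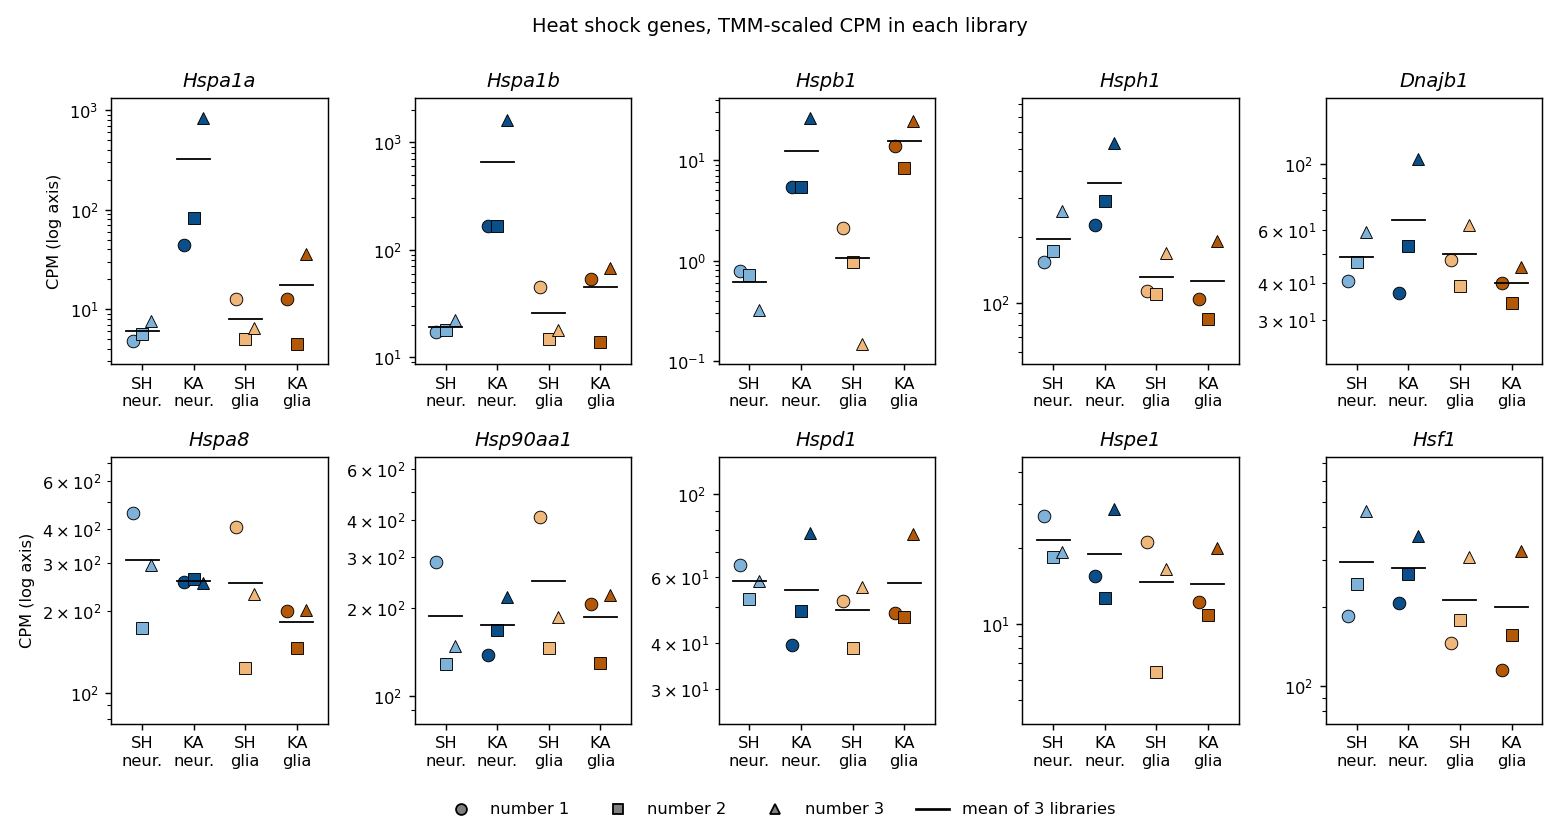
TMM-scaled CPM (log axis) of the 10 genes in each of the 12 libraries; each panel is a gene, each point a library, shapes give the replicate number and black bars the mean of 3 libraries. KA neurons lie above SH neurons in every library for Hspa1a, Hspa1b and Hspb1, and KA glia above SH glia for Hspb1. The triangles of KA neurons (replicate 3) are the highest points for Hspa1a, Hspa1b, Hspb1, Hsph1, Dnajb1, Hspd1 and Hspe1. For Hspb1 and Hspd1 the triangle of KA glia lies close below (24.5 against 26.1 CPM and 78.5 against 78.6 CPM).

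The 2 genes are near copies, which limits how reads can be given to each. Of all 75-base words of the Hspa1a exon, 52.7% also occur in Hspa1b, and 55.8% of the Hspa1b words occur in Hspa1a. The authors counted uniquely assigned reads, so the split between the genes is uncertain. With both rows added before the fit, the pair rose 38.6-fold in neurons (log2 fold change 5.27 ± 0.94, FDR 0.0536) and did not pass in glia (0.89 ± 0.79, FDR 1.00). The ratio of Hspa1b to Hspa1a was 2.87 to 3.63 in SH neurons, 3.76, 2.00 and 1.93 in KA neurons, 2.80 to 3.55 in SH glia and 4.20, 3.09 and 1.90 in KA glia. Both libraries of KA pool 3 had the lowest ratios of their fraction. In addition, 564 bases of the Hspa1a exon (19.0%) are shared with Gm20481 on the other strand, a gene with 0 counts in all libraries. The counting did not use strand and dropped reads overlapping more than 1 gene. Reads from these bases would thus be counted for neither gene.

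Hspb1 (ENSMUSG00000004951) encodes the small heat shock protein HSP27 and lies at chr5:135887919-135889563 on the plus strand. Its counts were low in SH libraries, 13, 17 and 8 reads in neurons and 26, 20 and 5 reads in glia. In neurons it stood at 0.787, 0.717 and 0.327 CPM in SH and at 5.38, 5.41 and 26.1 CPM in KA. In glia it stood at 2.09, 0.974 and 0.149 CPM in SH and at 13.8, 8.34 and 24.5 CPM in KA. In both fractions every KA library lay above every SH library (5.27% of all genes tested in neurons, 3.61% in glia), and replicate 3 had both the lowest SH and the highest KA value. The log2 fold change was 4.34 ± 0.86 in neurons (FDR 0.0942) and 3.93 ± 0.85 in glia (FDR 0.0918). By pool number the rise was 6.84-fold, 7.56-fold and 79.9-fold in neurons and 6.61-fold, 8.56-fold and 164-fold in glia.

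The Hspb1 call in neurons was lost without KA neurons replicate 3 (8.84-fold, FDR 0.786) and without any SH neuron library (FDR 0.329 to 0.507). In glia it was lost without SH glia replicate 3 (10.3-fold, FDR 0.251) or KA glia replicate 3 (10.8-fold, FDR 0.264), and was 30.6-fold without SH glia replicate 1 (FDR 0.102). With the replicate block and without KA neurons replicate 3 it was 7.15-fold higher in neurons (FDR 0.244). It was higher in KA in all 17 alternatives in neurons and all 16 in glia. In KA pools Hspb1 in neurons was 38.9%, 64.9% and 107% of its level in glia, whereas the summed astrocytic markers in those neuron libraries were 10.9%, 30.1% and 43.6% of the glial level, the microglial markers 5.97%, 7.91% and 6.62%, and the endothelial markers 43.6%, 47.0% and 95.8%. Without a block 0 of the 8 astrocytic and 0 of the 7 endothelial markers were called in KA neurons, and with the replicate block Gfap and Sox9 were higher and Aldoc lower. In KA glia with that block Gfap was higher by 3.73-fold and 4 other astrocytic markers were lower. The part of glial or vascular RNA in the neuronal Hspb1 values was not tested. Of 75-base words of Hspb1 exons, 47.0% occur elsewhere in the genome. Single reads of that length from those stretches could not be assigned uniquely; part of the libraries had longer paired reads, for which this was not computed.

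Hsph1 (ENSMUSG00000029657) encodes HSP110, the nucleotide exchange factor that works with HSP70, and lies at chr5:149614287-149636376 on the minus strand. It stood at 153, 172 and 263 CPM in SH neurons and at 227, 291 and 535 CPM in KA neurons. It stood at 113, 111 and 170 CPM in SH glia and at 105, 84.6 and 191 CPM in KA glia. The neuron groups overlapped, since SH replicate 3 lay above KA replicate 1, but the KA library was the higher of each same-numbered pair, by 1.48-fold, 1.69-fold and 2.04-fold. Without a block the log2 fold change in neurons was 0.84 ± 0.43 (FDR 1.00). With the replicate number as a block it was 0.78 ± 0.22 and passed the test (FDR 0.118), as it did with total counts as the scaling (0.94); over its 18 alternatives the FDR ran from 0.118 to 1.00. The call with the block was lost without KA neurons replicate 3 (log2 0.66 ± 0.30, FDR 1.00). In glia the value was -0.05 ± 0.43 (FDR 1.00). None of its 75-base words occurs elsewhere in the genome.

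Dnajb1 (ENSMUSG00000005483) encodes the HSP40 protein that loads clients onto HSP70 and lies at chr8:83608193-83612653 on the plus strand. It stood at 40.5, 47.0 and 59.2 CPM in SH neurons and at 37.0, 53.1 and 104 CPM in KA neurons, with KA replicate 3 highest and the groups overlapping. In glia it stood at 47.8, 39.2 and 62.4 CPM in SH and at 40.1, 34.1 and 45.3 CPM in KA, lower in each of the 3 same-numbered pairs. The log2 fold changes were 0.41 ± 0.37 in neurons and -0.32 ± 0.37 in glia (FDR 1.00 in both).

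Hspa8 (ENSMUSG00000015656) encodes HSC70, the constitutive HSP70 that also uncoats clathrin vesicles, and lies at chr9:40800984-40810087 on the plus strand. It stood at 458, 172 and 294 CPM in SH neurons, and at 255, 262 and 253 CPM in KA neurons. In glia it stood at 405, 123 and 230 CPM in SH and at 199, 146 and 201 CPM in KA. The spread among SH libraries was 2.66-fold in neurons and 3.29-fold in glia, and all KA neuron values lay inside the SH range. The log2 fold changes were -0.26 ± 0.45 and -0.47 ± 0.45 (FDR 1.00 in both). Hsp90aa1 (ENSMUSG00000021270), which encodes the inducible HSP90 alpha and lies at chr12:110690605-110702728 on the minus strand, likewise was highest in the SH replicate 1 libraries. It stood at 288, 129 and 148 CPM in SH neurons, 138, 169 and 219 CPM in KA neurons, 411, 147 and 186 CPM in SH glia and 207, 130 and 223 CPM in KA glia. Its log2 fold changes were -0.10 ± 0.45 and -0.41 ± 0.45 (FDR 1.00 in both). The SH replicate 1 libraries were among the 3 with the highest shares of mitochondrial reads, the other being KA glia replicate 1. Over the 12 libraries the log2 level of Hsp90aa1 correlated with the log2 share of mitochondrial reads with Pearson's r = 0.73, and with r = 0.26 over the 10 libraries without the SH replicate 1 libraries, KA glia replicate 1 included; for Hspa8 the values were 0.39 and -0.34. Their part in the result was not tested. Of 75-base words, 30.0% for Hspa8 and 49.8% for Hsp90aa1 occur elsewhere in the genome.

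Hspd1 and Hspe1 encode the mitochondrial chaperonin HSP60 and its lid HSP10, and are transcribed away from each other from a shared region of chromosome 1, Hspd1 (ENSMUSG00000025980) at chr1:55077835-55088243 on the minus strand and Hspe1 (ENSMUSG00000073676) at chr1:55088132-55091307 on the plus strand. Hspd1 stood at 64.6, 52.4 and 58.5 CPM in SH neurons and at 39.4, 48.7 and 78.6 CPM in KA neurons. Hspe1 stood at 26.9, 18.5 and 19.4 CPM in SH neurons and at 15.5, 12.7 and 28.7 CPM in KA neurons. For both, KA replicates 1 and 2 lay below and KA replicate 3 above all SH neuron libraries. In glia Hspd1 ran from 38.8 to 56.4 CPM in SH and from 46.8 to 78.5 CPM in KA, and Hspe1 from 6.43 to 21.2 CPM and from 10.9 to 20.0 CPM. The log2 fold changes were -0.07 ± 0.34 and 0.24 ± 0.34 for Hspd1 and -0.19 ± 0.44 and -0.03 ± 0.44 for Hspe1, in neurons and glia (FDR 1.00 in all). Levels of the pair correlated over the 12 libraries with r = 0.78. The annotated exons overlap on opposite strands by 112 bases (4.24% of Hspd1 and 7.60% of Hspe1), and 35.4% of the Hspd1 words and 5.69% of the Hspe1 words occur elsewhere in the genome.

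Hsf1 (ENSMUSG00000022556), the regulator, lies at chr15:76477422-76501913 on the plus strand. It stood at 184, 244 and 462 CPM in SH neurons and at 207, 266 and 372 CPM in KA neurons. In glia it stood at 146, 179 and 310 CPM in SH and at 115, 157 and 326 CPM in KA. Replicate 3 was the highest and replicate 1 the lowest library of all 4 groups, and each KA group overlapped its SH group. The log2 fold changes were -0.08 ± 0.48 in neurons and -0.09 ± 0.48 in glia (FDR 1.00 in both). Over the 12 libraries its log2 level correlated with log2 total counts with r = 0.90. HSF1 is controlled at the protein level, which these counts do not measure.

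Counted over the 10 genes, 3 were higher in KA neurons at an FDR below 0.25 and 0 were lower, where 0.279% of the 37598 genes tested were called higher and 0.0612% lower. In glia 1 was higher and 0 lower, against 0.442% and 0.306% of all genes tested. At an unadjusted p below 0.05 in edgeR, 0 members were lower in either fraction. Below that p in either direction were 1203 of all genes in neurons and 1800 in glia. DESeq2 called 0 members lower, against 151 of all genes in neurons and 645 in glia. With the replicate block 4 members were higher in neurons (1.94% of all genes; 1.11% lower) and 1 in glia (3.47%; 4.17% lower). With that block but without KA neurons replicate 3, Hspa1a, Hspa1b and Hspb1 were the 3 members higher in neurons (0.426% of genes) and 0 were lower (0.0754%). Without a test, 3 members had all KA libraries above all SH libraries in neurons (5.27% of genes; 4.45% the other way, with 0 members) and 1 in glia (3.61%; 3% the other way, with 0 members). The members' median log2 fold change was 0.17 in neurons and -0.04 in glia, and that of all genes tested 0.00 and 0.14.

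**Figure D3:**
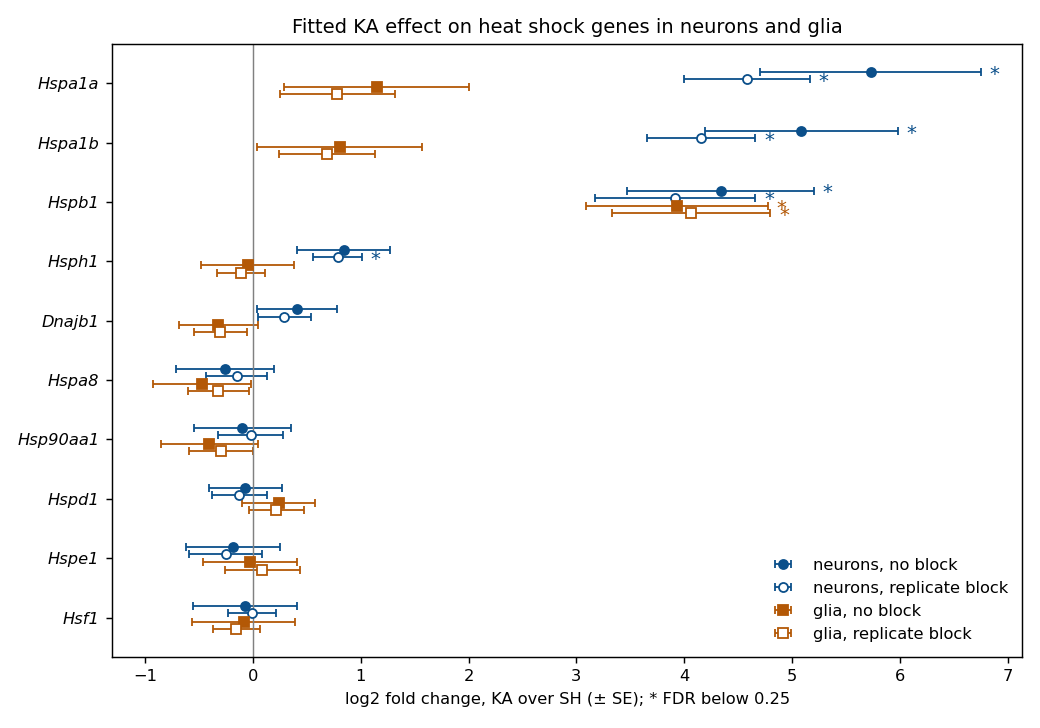
Fitted log2 fold change of KA over SH (horizontal axis; bars are 1 SE) for the 10 genes in neurons (circles) and glia (squares), without a block (filled) and with the replicate number as a block (open); stars mark an FDR below 0.25. Hspa1a and Hspa1b stand at 5.73 and 5.09 in neurons and at 1.15 and 0.80 in glia, Hspb1 stands near 4 in both, and the other 7 lie within 1 of 0.

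Whether KA acted differently on the fractions was tested as the difference of the log2 fold changes, neurons minus glia. It was 4.58 ± 1.25 for Hspa1a and 4.28 ± 1.11 for Hspa1b, and 0 members passed at an FDR below 0.25 (FDR 1.00 for both), where 0% of all genes were called in either direction. At an unadjusted p below 0.05 there were 2 members and 502 genes by edgeR, and DESeq2 called 39 genes and 0 members, without an adjusted p for Hspa1b. Neurons and glia of a pool come from the same mice, and with the pool as a block the difference was 3.88 ± 0.64 for Hspa1a (FDR 0.0429) and 3.55 ± 0.65 for Hspa1b (FDR 0.0588). These 2 members were then called higher in neurons and 0 lower, against 0.314% and 0.157% of all genes; over all alternatives their FDR ran from 0.0429 to 1.00 and from 0.0588 to 1.00. Without KA neurons replicate 3 and without a block, the difference was 2.25 ± 0.85 for Hspa1a and 2.32 ± 0.76 for Hspa1b (FDR 1.00 for both). Without KA glia replicate 3 it was 5.65 for Hspa1a, and without SH glia replicate 1 it was 3.56 for Hspa1b. Without both low-input libraries it was 3.65 ± 1.27 for Hspa1a and 3.26 ± 1.11 for Hspa1b, and neither passed the test. With the pool as a block and without KA neurons replicate 3, a fit chosen after seeing the data, it was 3.31 ± 0.71 for Hspa1a and 2.86 ± 0.62 for Hspa1b (FDR 0.205 for both). In that fit 0.471% of genes were called higher and 0.14% lower. KA glia replicate 3 had no partner in it, so its KA part rests on KA pools 1 and 2. These 2 fits with the pool as a block were the only ones of 23 alternatives in which the difference was called for either gene. For Hspb1 the difference was 0.41 ± 1.09 without and -0.18 ± 0.65 with the pool as a block.

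The levels of the 2 fractions were also compared directly. In KA mice 3 members were higher in neurons than in glia, where 11.2% of genes were higher and 6.62% lower: Hspa1a by 18.2-fold (FDR 8.111e-03), Hspa1b by 14.4-fold (FDR 6.600e-03) and Hsph1 by 2.77-fold (FDR 0.0421). Without KA neurons replicate 3 the log2 difference was 1.85 for Hspa1a (FDR 0.111) and 1.89 for Hspa1b (FDR 0.0571), and both also passed without any other single KA library, at 9.28-fold to 38.1-fold. The Hsph1 call was lost without KA neurons replicate 3, without KA glia replicate 1 or 2 and without both low-input libraries, at log2 values of 1.04 to 1.13. Dnajb1 became called without KA neurons replicate 1 or KA glia replicate 3 (log2 1.00 and 0.82), and Hsf1 without KA glia replicate 3 (1.06). With total counts as the scaling, Hspd1 was called lower in KA neurons than in KA glia (log2 -0.51, FDR 0.172), against -0.06 by TMM. In SH mice 0 members passed in either direction by edgeR, where 12.3% of genes were higher and 7.57% lower. DESeq2 also called 0 members, against 4239 of 37598 genes higher and 3829 lower. At an unadjusted p below 0.05 in edgeR there were 0 members and 7485 genes. Hspa1a was at -0.40 ± 0.86 and Hspa1b at -0.43 ± 0.76 on the log2 scale. With the pool as a block 6 members were higher in KA neurons (20.5% of genes; 10.9% lower, 0 members), the additional ones being Dnajb1 (log2 0.58, FDR 0.118), Hspa8 (1.43-fold, FDR 0.133) and Hsf1 (1.52-fold, FDR 0.0779), and 3 in SH neurons (21.9%; 11.8% lower, 0 members), which were Hsph1 (1.48-fold, FDR 0.0803), Hspe1 (1.61-fold, FDR 0.0973) and Hsf1 (1.37-fold, FDR 0.196). With that block but without KA neurons replicate 3, 5 members were higher in KA neurons (21.2% of genes), Dnajb1 no longer among them, and 1 was lower (13.3%), Hspb1 at log2 -0.97 ± 0.49 (FDR 0.229). Pool by pool, Hsph1, Hspa8, Hspe1 and Hsf1 were higher in neurons in all 6 pools. In all 3 SH pools 5 members were higher in neurons (30.1% of genes) and 1, Hsp90aa1, lower (19%). In all 3 KA pools 6 were higher (26.3%) and 0 lower (21.1%).

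**Figure D4:**
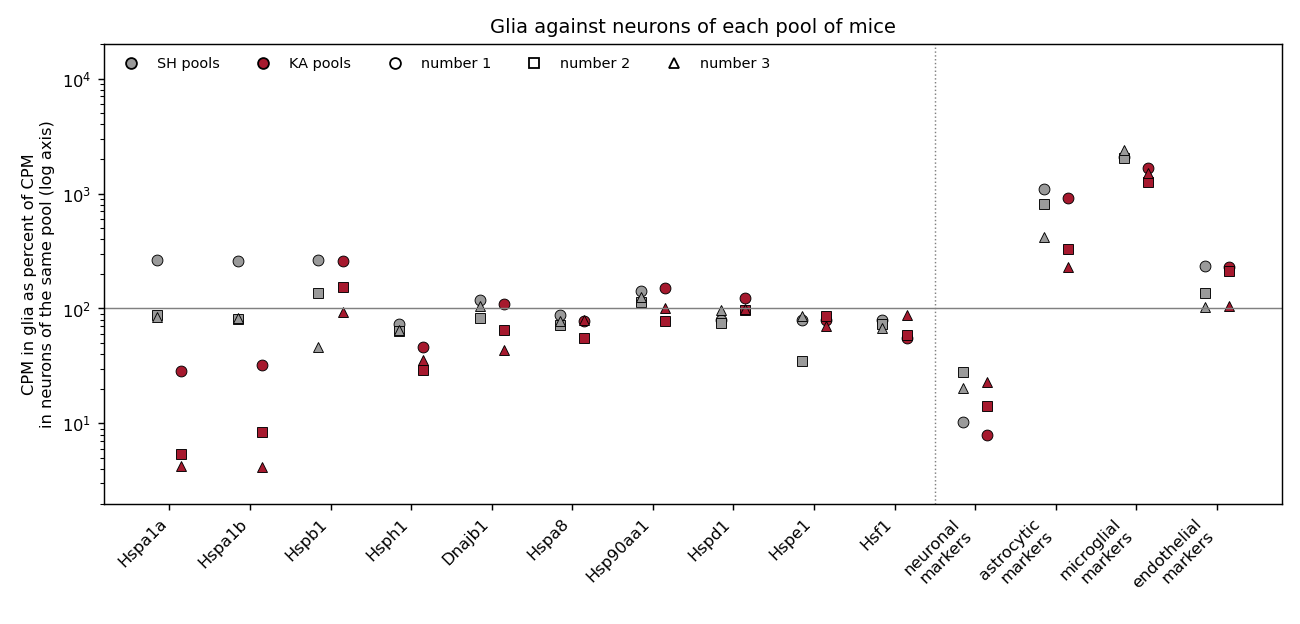
Level in glia as percent of the level in neurons of the same pool (log axis) for the 10 genes and for the summed neuronal, astrocytic, microglial and endothelial markers; grey points are SH pools, red points KA pools, shapes give the replicate number and the grey line marks equal levels. Hspa1a and Hspa1b stand at 4.20% to 32.0% in KA pools, Hspb1 between 45.8% and 266% in all 6 pools, and neuronal markers at 7.89% to 27.7%.

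Divided by exon length, the order of the mean levels in neurons differed between SH and KA. These levels were not corrected for bases where reads could not be assigned uniquely, which limits the order between genes. Nor were they corrected for exon bases shared with a gene on the other strand (19.0% of Hspa1a, 7.60% of Hspe1 and 4.24% of Hspd1). Of 75-base words, 54.2% for Hspa1a, 55.8% for Hspa1b, 49.8% for Hsp90aa1 and 30.0% for Hspa8 occur elsewhere in the genome, against 0% for Hsph1 and Hsf1. In SH neurons the mean level per kilobase was highest for Hspa8 (71.6 ± 33.3 CPM per kb), then Hsp90aa1 (47.9 ± 22.0), Hsf1 (41.8 ± 20.6), Hsph1 (27.0 ± 8.05), Hspd1 (22.1 ± 2.33), Dnajb1 (15.3 ± 2.96), Hspe1 (14.6 ± 3.13), Hspa1b (6.83 ± 0.90), Hspa1a (2.04 ± 0.50) and Hspb1 (0.592 ± 0.240) CPM per kb. The neighbours from Hspa8 down to Hspd1, and Dnajb1 and Hspe1, overlapped in their ranges, and the lowest 3 each stood apart. In KA neurons Hspa1b (232 ± 300 CPM per kb) and Hspa1a (108 ± 151 CPM per kb) came first, ahead of Hspa8 (59.7 ± 1.11 CPM per kb), and every neighbour in that order overlapped with the next. KA neurons replicate 3 alone put Hspa1a second. There Hspa1b stood at 578 and Hspa1a at 282 CPM per kb, whereas in replicates 1 and 2 Hspa1a stood at 15.0 and 27.8 CPM per kb, below Hspa8 (59.3 and 60.9), Hsp90aa1 (35.2 and 42.9), Hsph1 (31.3 and 40.0) and Hsf1 (29.1 and 37.4), and Hspa1b (59.7 and 58.9) lay beside Hspa8. In glia Hsp90aa1 and Hspa8 came first in both treatments, with Hsp90aa1 at 63.1 ± 36.2 in SH and 47.5 ± 12.6 CPM per kb in KA, and Hspb1 moved from the last place in SH (1.04 ± 0.94 CPM per kb) to 15.1 ± 7.97 CPM per kb in KA. Hspa1a and Hspa1b together made up 1.79% to 2.76% of the summed CPM of the 10 genes in SH neurons, 18.6%, 18.3% and 60.3% in KA neurons, and 2.32% to 8.57% in the glia libraries.

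Of the wider chaperone network, 70 further genes in 8 lists were tested, and 2 passed in neurons (1 higher and 1 lower, where 0.279% and 0.0612% of all genes were) and 0 in glia (0.442% and 0.306% of all genes). In glia 1 was higher and 4 lower at an unadjusted p below 0.05 in edgeR, where 1800 of all 37598 genes were in either direction. DESeq2 called 0 of the 70 higher and 2 lower in glia, against 365 and 645 of all genes. Bag3, the nucleotide exchange factor that links HSP70 to selective autophagy and to small heat shock proteins, rose 3.74-fold in neurons (log2 1.90 ± 0.41, FDR 0.133). It stood at 4.36, 5.14 and 3.84 CPM in SH neurons and at 11.4, 10.4 and 28.1 CPM in KA neurons, so that the groups did not overlap. In glia its KA libraries (30.4, 22.4 and 40.7 CPM) also lay above the SH libraries (12.6, 17.1 and 16.2 CPM), at log2 1.03 ± 0.39 (FDR 0.749; with the replicate block 1.00 ± 0.34, FDR 0.171). Hspa2, an HSP70 best known from the testis, fell 2.38-fold in neurons (log2 -1.25 ± 0.30, FDR 0.214), from 48.8, 45.4 and 40.7 CPM to 20.0, 20.7 and 16.1 CPM. In glia it stood at 59.3, 39.1 and 44.8 CPM in SH and 30.2, 21.5 and 31.9 CPM in KA (log2 -0.78 ± 0.30, FDR 0.743; with the replicate block -0.77 ± 0.25, FDR 0.125). Without KA neurons replicate 3 neither passed in neurons (log2 1.29 for Bag3 and -1.14 for Hspa2, FDR 1.00 for both), nor with the replicate block added (1.19 and -1.21, FDR 0.660 and 0.316). Bag3 was also lost without any SH neuron library (FDR 0.329 to 0.614), and Hspa2 without any neuron library (FDR 0.476 to 1.00).

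By list in neurons, beside those shares of all genes, 1 of 11 further HSP70 and HSP110 genes was lower, 1 of 9 nucleotide exchange factors and regulators was higher, and 0 of 15 J domain proteins, 0 of 12 HSP90 and co-chaperone genes, 0 of 6 small heat shock proteins, 0 of 8 subunits of the cytosolic chaperonin, 0 of 5 mitochondrial folding and protease genes and 0 of 4 heat shock factor genes passed. The median log2 fold change of the 70 genes was -0.17 in neurons and -0.15 in glia, beside 0.00 and 0.14 for all genes tested. With the replicate block 4 of the 70 passed in neurons (Bag3 and Hspb3 higher, Hspa2 and Cryab lower; 1.94% of all genes were higher and 1.11% lower), and 0 without KA neurons replicate 3. In glia 7 of the 70 passed with the block (Bag3 higher; Hspa2, Dnajb2, Dnajc6, Dnajc7, St13 and Cryab lower), where 3.47% of all genes were higher and 4.17% lower; Hspb3, Cryab, the J domain genes and St13 are named after their values were seen. HSPB3 and CRYAB are small heat shock proteins, DNAJC6 is the clathrin uncoating factor auxilin, and ST13 is the HSP70-interacting protein HIP. Markers of several cell types moved in glia too. Without a block Aldoc (astrocytic), P2ry12 (microglial) and Cspg4 (oligodendrocyte precursor) were lower and 0 markers higher. With the block, 4 of 8 oligodendrocytic, all 4 oligodendrocyte precursor, 4 of 8 astrocytic, 2 of 8 microglial, 2 of 10 neuronal and 1 of 5 pericytic markers were lower, and Gfap (astrocytic) and Tek (endothelial) higher. Their part in the glial values was not tested.

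**Figure D5:**
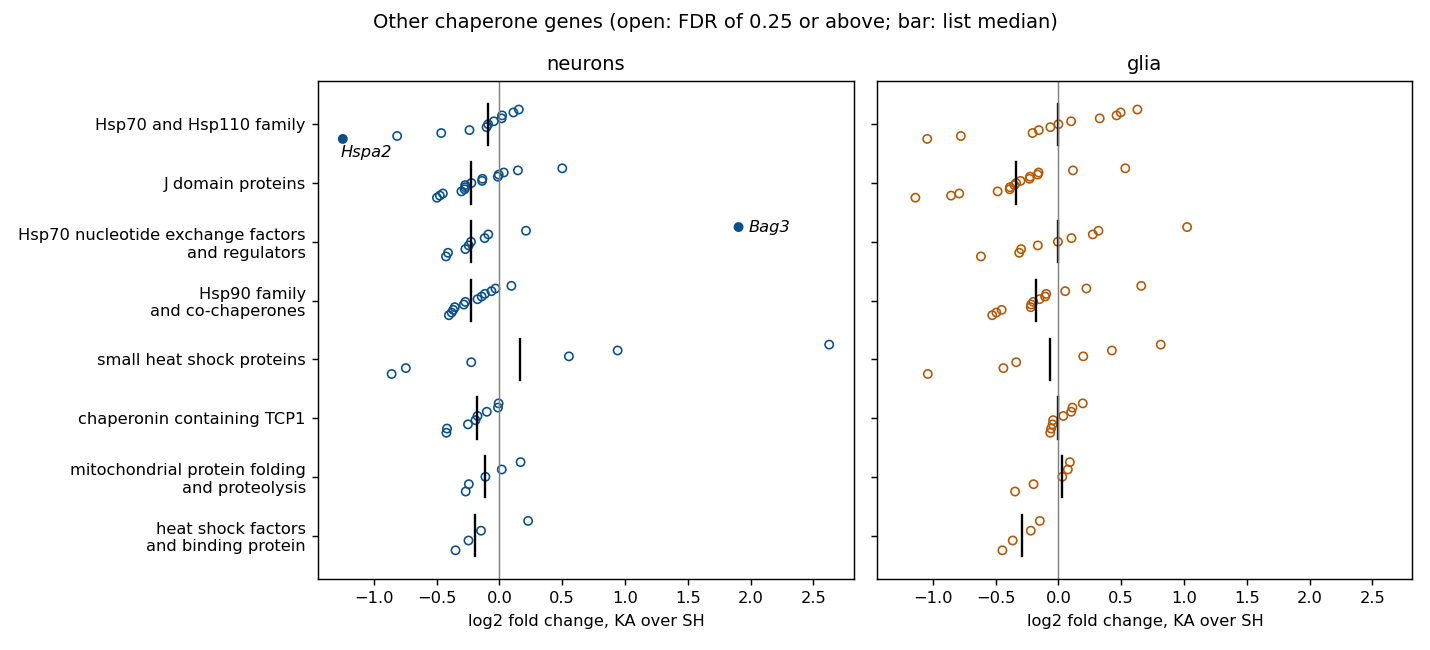
Fitted log2 fold change of KA over SH for 70 further chaperone genes in 8 lists, in neurons (left) and glia (right); each circle is a gene, filled where the FDR is below 0.25, and black bars are list medians. Bag3 at 1.90 and Hspa2 at -1.25 in neurons are the filled circles, and most other genes lie within 1 of 0.

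The genes whose pattern over the 12 libraries was most like Hspa1b, among 17256 protein-coding genes with a mean of at least 1 CPM, were Hspa1a (r = 0.99), Trip10 (0.91), Dpysl3 (0.89), Baalc (0.88) and Cd1d1 (0.86). Trip10, for example, ran from 6.96 to 13.9 CPM in SH neurons, 17.5 to 45.3 CPM in KA neurons, 10.3 to 13.1 CPM in SH glia and 9.48 to 17.0 CPM in KA glia. Among the other members, Hsph1 correlated with Hspa1b at 0.77, Hspb1 at 0.67 and Dnajb1 at 0.62, Hspa8 at 0.21 and Hsp90aa1 at 0.17. The pattern of Hspa8 was most like those of Gm9803 (0.97), Spcs1 (0.97), Ndufa6 (0.96), Sdf2 (0.95) and Emc7 (0.95), and the first, Gm9803, ran from 5.31 to 16.6 CPM in SH neurons against 6.04 to 8.18 CPM in KA neurons. All points share the libraries with their depth and input.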

How the data were processed

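Nuclear RNA libraries were made by the study with an oligo(dT) kit from both NeuN-sorted fractions of 3 pools per treatment. Per the labels and the study's methods, the authors trimmed reads with Trim Galore 0.4.3, aligned them to mm10 with Rsubread and deposited raw counts of uniquely assigned reads from featureCounts with default settings (no strand; reads overlapping more than 1 gene dropped) and GENCODE M16. Read length differed between sequencers and was not given per library. Symbols came from GENCODE M21 (53274 of 53379 genes). Counts were fitted with edgeR 4.0.16 (glmQLFit with legacy=TRUE, glmQLFTest; TMM; filterByExpr with a minimum count of 10 and total of 15), 4 group means over 12 libraries, 37598 genes tested, Benjamini-Hochberg adjustment and the study's FDR of 0.25. SEs were computed from the fold change and the F statistic. Log2 levels used a prior count of 2. Without a block, the 12 libraries entered the fit as separate units, although neurons and glia of a pool come from the same mice. Those p-values measure the spread between libraries of a group, each from a different pool. In the blocked fits, p-values measure the spread left after the block is taken out. Groups came from the labels.

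Samples of KA and SH with the same replicate number deviated together (correlation of deviations from group means 0.399, 0.264 and 0.551 in neurons, 0.457, 0.543 and 0.764 in glia). Pairs of different numbers ran from -0.502 to 0.142 in neurons and from -0.671 to 0.349 in glia, and the positive ones joined replicates 1 and 2. The number was used as a block in the paired fits, within each fraction for KA against SH and by pool for neurons against glia. For KA against SH this choice rests on these same data. DESeq2 1.42.0, other scalings and filters, separate fits and leaving out each library were the alternatives. The blocked fits without KA neurons replicate 3 were added after seeing the data. In them the partner of that library (SH neurons replicate 3, or KA glia replicate 3 with the pool as a block) stood alone in its block. These fits thus leave out the whole pair, whereas fits without a block leave out 1 library. The members, gene lists and tests were chosen with earlier results of these data known. All 10 members were named by rule, other chaperones where they passed the test, and the 5 genes most like Hspa1b and Hspa8. The edgeR fit without a block was tested on simulated counts, for KA against SH in neurons and in glia. The blocked fits, DESeq2 and the other comparisons were not tested in this way. Methylation libraries of the same nuclei were not analysed here.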

Additional observations from a re-analysis of the deposited data

Results flagged for a closer look

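The effect of KA was larger in neurons than in glia for Hspa1a and Hspa1b in the fits with the pool as a block, and in no other of the 23 alternatives was the difference called. With all libraries and the pool as a block, the log2 fold change in neurons exceeded that in glia by 3.88 ± 0.64 for Hspa1a (edgeR quasi-likelihood test, FDR 0.0429) and by 3.55 ± 0.65 for Hspa1b (FDR 0.0588). Without KA neurons replicate 3 this fit gave 3.31 ± 0.71 and 2.86 ± 0.62 (FDR 0.205 for both). The glia library of KA pool 3 then had no partner, so that pool added nothing to the difference. Without the block the differences were 4.58 and 4.28, and 2.25 and 2.32 without KA neurons replicate 3, with an FDR of 1.00. KA exceeded SH in all 3 same-numbered pairs of neurons for both genes and in 2 of 3 pairs of glia. In glia the ratios of KA to SH in pairs 1, 2 and 3 were 1.01, 0.892 and 5.55 for Hspa1a and 1.19, 0.939 and 3.77 for Hspa1b. The genes share most of their sequence and are not independent evidence. Single libraries far from their group could not be flagged, since groups of 3 are not tested for this.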

How the results depend on the processing

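Of the single-gene values computed under alternatives, 833 kept their direction and side of the threshold, 36 lost and 25 gained a call, and 81 turned direction. Hspa1a, Hspa1b and Hspb1 were higher in KA neurons under every alternative that gave a value. For KA against SH in neurons DESeq2 called 2 members and 305 of all 37598 genes higher. It gave Hspa1b a log2 fold change of 5.04 without an adjusted p. The cause of the changes was not tested unless an alternative itself leaves out samples or genes.

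At an FDR of 0.05 the members called were 0 in neurons and 0 in glia, and with at least 10 counts in every library 0 in glia, where Hspb1 was not tested. The replicate block by pool called 2 members for the difference, 3 for neurons against glia in SH and 6 in KA. Of other chaperones, neurons had 0 at FDR 0.05, 4 with the replicate block, 1 with no filter and 0 without both low-input libraries, and glia 7 with the block, 2 with total counts, 1 with edgeR 4, 2 with DESeq2 and 4 with at least 10 counts. All genes called in neurons numbered 128, but 18 at FDR 0.05, 656 in separate fits, 1147 with the replicate block, 363 with total counts, 253 with edgeR 4, 456 with DESeq2, 465 with at least 10 counts and 79 without low-input libraries; in glia 281, but 62, 146, 2871, 740, 515, 1010, 1203 and 41 in that order. Leaving out 1 library gave 0 to 3 members in neurons, 0 to 1 in glia and 2 to 5 for KA neurons against glia, 0 to 1 other chaperones in either fraction, and 11 to 143 genes in neurons and 83 to 554 in glia. The block without KA neurons replicate 3, chosen after seeing the data, called 0 other chaperones and 193 genes in neurons and, by pool, 2 members for the difference and 6 for neurons against glia in KA; it turned Hsf1 in neurons to 0.14 and the Hspb1 difference to -0.54 (both uncalled). No call of a member other than those named here and in the report changed with a block.

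With total counts as the scaling, the median log2 fold change of all genes was 0.11 in neurons and 0.42 in glia, against 0.00 and 0.14, and calls split 514 higher to 226 lower in glia (166 to 115 by TMM), 3710 to 4302 for neurons against glia in SH (4628 to 2846; RLE 3379 to 3214) and 3161 to 4644 in KA (4200 to 2490). Total counts also made Hspd1 a call in KA neurons against glia (-0.51, from -0.06). None of the following values was called in either setting. Total counts turned Hsph1 in glia to 0.15, Hspe1 in glia to 0.20, Hsf1 to 0.09 in neurons, 0.10 in glia and -0.02 in the difference, Hspa8 and Hspd1 in SH neurons against glia to -0.02 and -0.04, and Hspe1 in KA to -0.05. Separate fits turned Hsph1, Hspe1 and Hsf1 in glia to 0.07, 0.11 and 0.02. The replicate block turned Hspe1 in glia to 0.09 and, by pool, the Hspb1 difference to -0.18. Hspe1 in glia was 0.00 with edgeR 4 and with at least 10 counts, which turned Hspd1 in SH to -0.03. Without both low-input libraries the Hspb1, Hspa8 and Hsp90aa1 differences were -0.90, -0.26 and -0.35, Hsp90aa1 and Hspe1 in glia 0.21 and 0.31, and Hspb1 and Hsf1 in SH 0.05 and -0.04.

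Leaving out 1 library turned uncalled values within these log2 ranges. For KA against SH in neurons they were Dnajb1 -0.12 to 0.69, Hspa8 -0.55 to 0.14, Hsp90aa1 -0.31 to 0.34, Hspd1 -0.41 to 0.13, Hspe1 -0.62 to 0.04 and Hsf1 -0.33 to 0.39. In glia they were Hsph1 -0.48 to 0.18, Hspa8 -0.81 to 0.15, Hsp90aa1 -0.68 to 0.27, Hspd1 -0.06 to 0.37, Hspe1 -0.39 to 0.40 and Hsf1 -0.65 to 0.29. For the difference they were Hspb1 -0.76 to 0.98, Hspa8 -0.40 to 0.62, Hsp90aa1 -0.36 to 0.75, Hspe1 -0.58 to 0.21 and Hsf1 -0.37 to 0.58. For SH neurons against glia they were Dnajb1 -0.40 to 0.17, Hspa8 -0.10 to 0.58, Hspd1 -0.04 to 0.37 and Hsf1 -0.06 to 0.87, and for KA Hspb1 -1.52 to 0.17, Hsp90aa1 -0.42 to 0.07, Hspd1 -0.38 to 0.24 and Hspe1 -0.03 to 0.73.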
